A study of Mus musculus with 20 samples.

Results

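ATP released from active or injured cells signals through 2 families of receptors at the cell surface. P2X receptors are cation channels that open when ATP binds, and P2Y receptors are G protein-coupled receptors for ATP, ADP or UTP. In sensory neurons of the dorsal root ganglion (DRG), channels that contain the P2X3 subunit, alone or together with P2X2, carry the excitatory current evoked by ATP and are known for their part in pain signalling. The 9 purinergic receptor genes P2rx2, P2rx3, P2rx4, P2rx5, P2rx6, P2rx7, P2ry1, P2ry2 and P2ry12 were followed here, out of 30222 gene names on the array. Every probe whose gene name in the later of the array annotations was one of these symbols, and which was not a control, was taken, which gave 16 probes on 25 spots for 6 P2X and 3 P2Y genes. Each symbol also stands in the RefSeq gene table of the mouse.

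Of the 9 genes, 4 (P2rx3, P2rx4, P2rx5 and P2ry2) passed a filter on signal and spot quality in all 20 samples, and the other 5 did not. P2rx5 was 1.83-fold higher (95% interval 1.15 to 2.90) after 5 hr of the 18/1 pattern than in unstimulated neurons, a comparison in which 44.4% of all genes were called. This call was kept in 31 of 43 other settings. When arrays were only centred on their medians, the difference was 0.07 on the log2 scale. That is 0.87 above the median gene, as against 1.10 above it in the normalization used here. P2ry2 was 1.70-fold higher (95% interval 1.16 to 2.48) after 5 hr than after 2 hr of the 18/1 pattern, and its change over time differed between the patterns, with 44.0% and 44.8% of all genes called in these comparisons. These P2ry2 calls were kept in 33 of 43 and in 38 of 41 other settings. Neither call was kept when arrays were only centred on their medians, where both differences were nearly as large relative to the median gene. Both were also lost when the GC trend of the probes was removed, where the log2 differences were 0.63 as against 0.76 and −0.93 as against −1.25. After 5 hr of the 18/1 pattern P2rx3 was lower at A_51_P116326 (−0.88) and A_55_P2050069 (−0.80), both called, where 44.9% of all probes were called. Its brightest probe, A_55_P1992430, was lower by as much (−0.88) but was not called. The 1 probe that rose, A_55_P2375194 (1.70), is assigned to a cDNA clone, as is A_55_P2050069. The earlier annotation named neither of this pair as P2rx3. No member passed the threshold against unstimulated neurons after 2 hr of either pattern or after 5 hr of the 90/5 pattern.

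The cells were neurons from NIH Swiss mouse embryos of day 13.5, kept for 3 to 4 weeks in chambers with separate compartments, in medium with nerve growth factor (100 ng/ml) and 5% serum and with an early treatment against dividing non-neuronal cells, before nerve growth factor and serum were withdrawn overnight. Axons were either left unstimulated or driven by biphasic pulses of 6 V and 0.2 ms, either 18 impulses each minute (the pattern 18/1) or the same mean number delivered as 90 impulses once in 5 min (the pattern 90/5), for 2 hr or 5 hr. All 5 conditions thus share strain, age and culture, and the comparisons ask how receptor mRNA depends on the pattern and the duration of firing. Each condition had 4 samples on 2 arrays, 1 sample in each of the colours Cy3 and Cy5 of an array, and the methods describe 5 pooled cultures per condition, so p-values measure the spread between these samples.

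A slide carried up to 4 arrays. Unstimulated neurons (arrays 1 and 2) shared slide 1 with 18/1 2 hr (arrays 3 and 4), 18/1 5 hr (arrays 5 and 6) shared slide 2 with 90/5 2 hr (arrays 7 and 8), and 90/5 5 hr (arrays 9 and 10) was alone on slide 3. For every contrast other than 18/1 2 hr against unstimulated and 90/5 2 hr against 18/1 5 hr, slide and condition cannot be told apart. The median signal was 2.27 to 2.59 times the local background in the unstimulated samples and 5.55 to 10.4 times in 18/1 5 hr. Spots that the scanner software marked as non-uniform numbered 6 to 36 per sample on slide 1, 5319 to 14642 in 18/1 5 hr, 45 to 6476 in 90/5 2 hr and 37 to 85 on slide 3. The labels call the cells DRG neurons while the growth protocol names the spinal cord as their source. Of 15 sensory neuron genes 13 passed the filter, among them Pou4f1 and Scn10a, whereas 0 of 5 spinal cord genes (Mnx1, Chat, Gfap, Aqp4 and Slc1a3) did so in all samples. Of these, Aqp4 passed in 17 samples, Gfap in 14 and Slc1a3 in 11.

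Levels are given as normalized log2 signal, the brightness of a probe after background correction and scaling, in which a difference of 1 is a 2-fold change. Signals of different probes are not comparable with each other. A sample passed the filter at a probe when its spot was at least 2 times as bright as its background and was not marked non-uniform. Within a condition, values are listed as Cy3 and Cy5 of the first array followed by Cy3 and Cy5 of the second, which for the unstimulated, 18/1 2 hr and 90/5 5 hr conditions is also the order of replicates 1 to 4. Since the RNA came from whole cultures, fewer cells of a kind and less RNA per cell cannot be told apart.

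The spots carry DNA of 60 bases, and a gene can be read only through the part of its transcript that a probe matches. The first 30 bases of the probes of P2rx5, P2rx6 and P2ry2 and of 3 P2rx3 probes follow, 5′ to 3′ and in lower case throughout. Called differences of the receptors rest on these probes, except A_55_P1992430, which was not called. The P2rx3 probe that went the other way, A_55_P2375194, is not printed. Sequences and mm9 positions were taken from the array annotation.
P2rx3 probe A_55_P1992430: aagcagcttgagaggctcttttggtttggc
P2rx3 probe A_51_P116326: atttgcttccctgggtcccaagcatccatc
P2rx3 probe A_55_P2050069: ctgtgtcccttcacacaacacctgttctca
P2rx5 probe A_55_P2178678: gctctcagaagcccagccttgatgtgctaa
P2rx6 probe A_51_P115346: aggacaaagcttcagcgggactagagggga
P2ry2 probe A_52_P587738: attccactgtggccaatcctatttcaattt

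Probes A_51_P116326 (chr2:84838898-84838957, minus strand) and A_55_P1992430 (chr2:84837707-84837766) are assigned to the same RefSeq transcript of P2rx3, the second further towards its 3′ end. The other P2rx3 probes are each assigned to a cDNA clone, A_55_P2050069 at chr2:84836045-84836104, and the earlier annotation did not name either of these as P2rx3. The P2rx5 probe lies at chr11:72986128-72986187 on the plus strand and the P2ry2 probe at chr7:108145553-108145612 on the minus strand. The P2rx6 probe lies at chr16:17571293-17571352 on the plus strand. No genome of that build was used here, so exons and untranslated regions were not assigned.

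**Figure D1:**
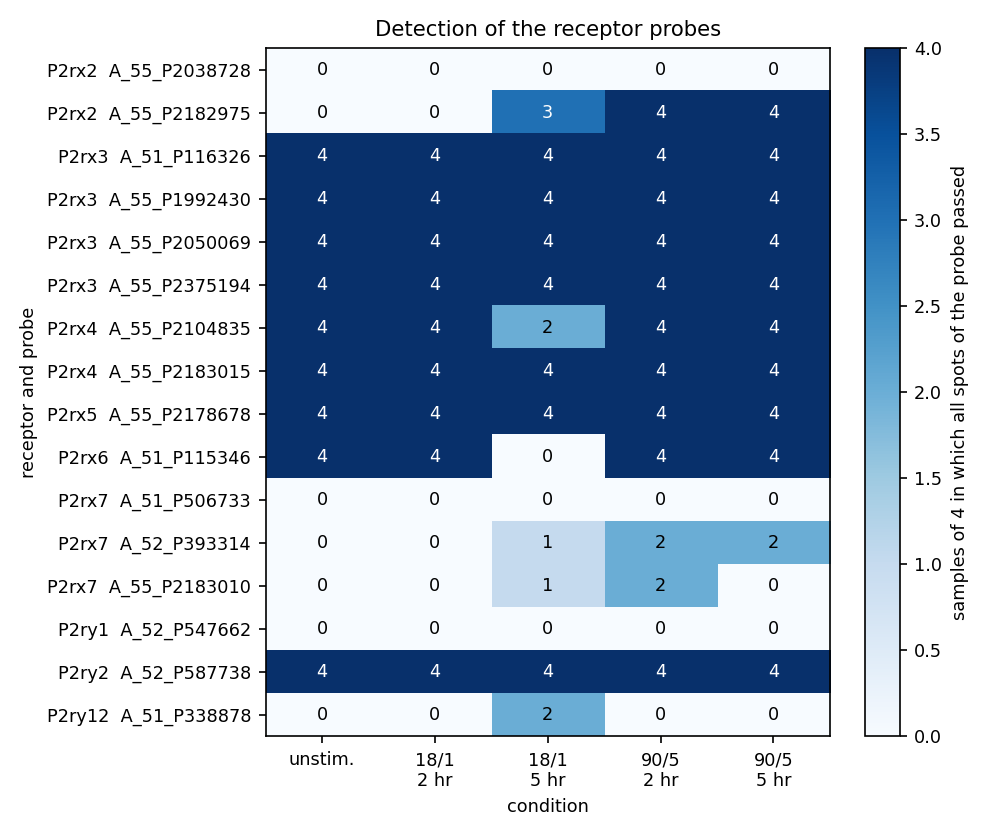
Number of samples out of 4 (colour scale) in which all spots of a probe passed the filter, for the 16 probes (rows) in the 5 conditions (columns). The probes of P2rx3 and P2ry2, the brighter probe of P2rx4 and the probe of P2rx5 passed in 4 of 4 samples of every condition, while 1 probe of P2rx2, 1 of P2rx7 and the P2ry1 probe passed in none.

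Among the 10355 gene names tested, each represented by its brightest probe that passed in all 20 samples, members were called at a Benjamini-Hochberg adjusted p under 0.05 in limma. After 18/1 5 hr 1 of the 4 tested members was called against unstimulated neurons, where 44.4% of all genes were called. In 18/1 2 hr, 90/5 2 hr and 90/5 5 hr 0 members were called against unstimulated neurons, with 0.0193%, 6.97% and 0.0676% of all genes called. At an unadjusted p under 0.05, P2rx4 was the member past that level in 90/5 2 hr, and none was in the other pair of conditions. With the replicate number as a block, 0 members and 0.0676% of all genes were called in 18/1 2 hr. Between the patterns 0 members were called, with 4.96% of all genes called at 2 hr and 45.4% at 5 hr. Between 5 hr and 2 hr of 18/1 1 member was called, with 44.0% of all genes, and between 5 hr and 2 hr of 90/5 0 members were called, with 8.96%. In 90/5 2 hr against 18/1 5 hr, on the same slide, 0 members were called, with 12.9% of all genes. The difference between the patterns in their change from 2 hr to 5 hr, hereafter called the interaction, was called for 1 member and for 44.8% of all genes. At an unadjusted p under 0.05, P2ry2 was the member past that level between the patterns at both times, and none was for 90/5 5 hr against 2 hr or for 90/5 2 hr against 18/1 5 hr. A t-test for unequal variances on linear signals, at unadjusted p under 0.05 and at least 1.4-fold, stood in for the test of the methods. It used the normalization given here. It left out the variability cut-off per transcript and the Bonferroni type correction that the methods describe. This version, hereafter called the test of the methods or the methods' test, passed P2rx5 in 90/5 5 hr against unstimulated neurons. It also passed P2ry2 between the patterns at both times, and no other member in the comparisons with 0 called members. With 1 or 0 of 4 members called, these shares were at or below those of all genes.

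P2rx3 encodes the channel subunit that is most typical of pain-sensing neurons. By its brightest probe, A_55_P1992430, the unstimulated samples were at 12.84, 12.35, 12.76 and 11.77. The 18/1 5 hr samples were at 12.11, 12.10, 10.82 and 11.15, and the 90/5 5 hr samples at 12.46, 12.53, 11.31 and 12.04. The second array of 18/1 5 hr was low, with a gap of 1.12 between its mean and that of the first, and the groups overlapped. The 18/1 2 hr samples ranged from 11.87 to 12.83 and the 90/5 2 hr samples from 11.37 to 12.86, also in overlap with the unstimulated samples. The difference from unstimulated neurons was −0.19 after 18/1 2 hr, −0.88 after 18/1 5 hr (SE 0.46, limma adjusted p = 0.124), −0.41 after 90/5 2 hr and −0.34 after 90/5 5 hr. The difference in 18/1 5 hr was called with centring on medians alone (−1.50, adjusted p = 0.0226, which is −0.70 relative to the median gene as against −0.65) and with no array block (−0.88, adjusted p = 0.0460), and it ranged from −1.44 to −0.32 when single samples or arrays were left out. By this probe P2rx3 was highest in unstimulated neurons and lowest in 18/1 5 hr, and neighbours in the order of the 5 means overlapped.

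The P2rx3 probe with the most spots, A_51_P116326, was printed 10 times on each array, and the SD between those spots was 0.287 at the median of the 20 samples (0.119 to 0.462). By this probe the unstimulated samples were at 11.71, 11.30, 11.58 and 11.68. The 18/1 5 hr samples were at 10.95, 10.88, 10.41 and 10.49, all below the unstimulated samples. In a fit to all 12137 probes that passed in all samples, of which 44.9% were called in this comparison, P2rx3 fell by 0.88 at this probe (SE 0.23, limma adjusted p = 0.00446). The samples of 90/5 5 hr were at 11.75, 11.74, 11.53 and 11.27, and the level was 0.89 above that of 18/1 5 hr (adjusted p = 0.00401, 45.9% of probes called). Within 18/1 the level fell by 0.74 from 2 hr to 5 hr (adjusted p = 0.0136, 44.8% of probes called). The 90/5 2 hr samples, between 11.32 and 11.52 and on the same slide as 18/1 5 hr, lay 0.75 above those of 18/1 5 hr without overlap (adjusted p = 0.0385, 13.8% of probes called). The interaction was 0.89 (adjusted p = 0.0327, 45.0% of probes called).

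The remaining P2rx3 probes differed from each other in direction. At A_55_P2050069 the unstimulated samples were at 9.17, 9.10, 9.29 and 9.24, and the 18/1 5 hr samples at 7.97, 7.85, 8.83 and 8.95. The groups did not overlap, the level fell by 0.80 (SE 0.26, limma adjusted p = 0.0158), and 90/5 5 hr was 0.93 above 18/1 5 hr (adjusted p = 0.00611), with an interaction of 1.16 (adjusted p = 0.0138). At A_55_P2375194, whose clone came from testis cDNA, the unstimulated samples were at 9.28, 9.29, 9.59 and 8.92, and the 18/1 5 hr samples at 11.10, 11.41, 10.89 and 10.50. Here 18/1 5 hr had the highest mean, overlapping with 90/5 2 hr but with no unstimulated sample, and was 1.70 above unstimulated neurons (SE 0.37, adjusted p = 0.00103), 1.46 above 18/1 2 hr (adjusted p = 0.00332) and higher than 90/5 5 hr, with a difference of −1.10 for 90/5 minus 18/1 (adjusted p = 0.0197). The interaction was −1.81 (adjusted p = 0.00786). As a description over the 20 samples, A_55_P2375194 had a Pearson correlation of −0.68 with A_51_P116326 and of −0.68 with A_55_P2050069, while A_51_P116326 and A_55_P1992430 had one of 0.60. Whether the probes assigned to cDNA clones read the receptor transcript was not tested.

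The calls of the P2rx3 probes were followed through 34 other settings of the fit to all probes, and no direction was reversed in these. At A_51_P116326 the fall in 18/1 5 hr against unstimulated neurons was called in 33 of them and was lost without array 2 (−0.82, adjusted p = 0.0631), and the difference between the patterns at 5 hr was lost without array 9 (0.72, adjusted p = 0.0709). The change within 18/1 was lost without array 3 (−0.80), array 4 (−0.69) or array 6 (−0.51), at adjusted p of 0.0641 to 0.117. The difference between 90/5 2 hr and 18/1 5 hr was called in 22 of the settings and was lost, at adjusted p of 0.0508 to 0.163, without 18/1 2 hr replicate 2 or 4, the Cy5 sample of array 7, 90/5 5 hr replicate 4, or array 1, 2, 3, 4, 6, 7, 9 or 10, with its lowest value of 0.52 without array 6. The interaction at this probe was called in 27 settings and was lost, at adjusted p of up to 0.153, without 18/1 2 hr replicate 4 (0.84), 90/5 5 hr replicate 2 (0.86), or array 2 (0.89), 3 (0.95), 4 (0.83), 6 (0.66) or 9 (0.71). At A_55_P2050069 the fall in 18/1 5 hr was −0.31 without array 5 (adjusted p = 0.282) and was also lost without array 1 (−0.87) or array 2 (−0.74), and the difference between the patterns was lost without array 5 (0.44, adjusted p = 0.122) or array 10 (0.86, adjusted p = 0.0609). Its interaction was lost without array 4 (0.99), array 5 (0.66) or array 10 (1.09), at adjusted p of 0.0589 to 0.0906. At A_55_P2375194 centring arrays on their medians alone gave 0.92 for 18/1 5 hr against unstimulated neurons (adjusted p = 0.0544), 0.68 for the change within 18/1 (adjusted p = 0.152), −0.19 between the patterns at 5 hr (adjusted p = 0.705) and −0.89 for the interaction (adjusted p = 0.191). This setting moved the median of all genes tested to −0.81 from −0.23 in 18/1 5 hr against unstimulated neurons and to 0.93 from 0.23 between the patterns at 5 hr. The difference between the patterns at this probe was also lost without array 5 (−0.81, adjusted p = 0.0919) or array 9 (−0.74, adjusted p = 0.213), and the interaction without array 9 (−1.45, adjusted p = 0.0555).

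**Figure D2:**
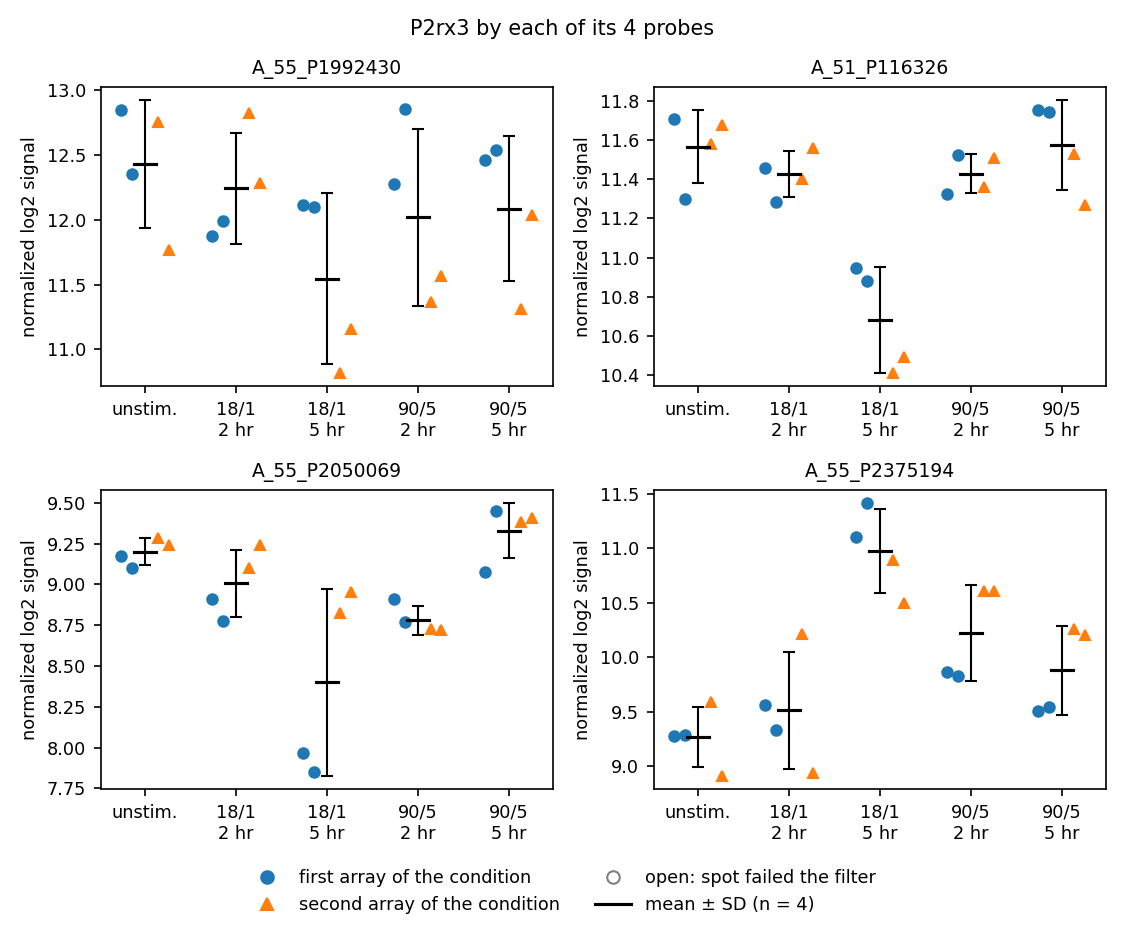
Normalized log2 signal of P2rx3 by each of its 4 probes (panels) in the 5 conditions. Circles are samples of the first array of a condition, triangles those of the second, and bars the mean ± SD of 4 samples. At A_51_P116326 and at A_55_P2050069 all 18/1 5 hr samples lay below all unstimulated samples, and at A_55_P2375194 all lay above.

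P2rx4 encodes a subunit found in neurons and in immune cells. By its brighter probe, A_55_P2183015, the unstimulated samples were at 12.71, 12.86, 12.55 and 13.03, and the 90/5 2 hr samples at 13.34, 13.11, 13.39 and 13.94. All 90/5 2 hr samples lay above the unstimulated ones. The difference of 0.66 (SE 0.26, fold 1.58, 95% interval 1.08 to 2.29) did not pass the threshold (limma adjusted p = 0.132, unadjusted p = 0.0193). The 18/1 2 hr samples, at 13.06, 13.20, 12.81 and 13.11, differed from unstimulated by 0.26. The 18/1 5 hr samples were at 12.88, 13.02, 13.13 and 13.66 and those of 90/5 5 hr at 12.99, 13.24, 13.29 and 13.06, and both groups overlapped with the unstimulated samples. The patterns differed by −0.03 at 5 hr (95% interval −0.57 to 0.51, 90/5 minus 18/1). The other P2rx4 probe, A_55_P2104835, ranged from 8.42 to 8.91 in unstimulated neurons. In 18/1 5 hr it was at 8.00 and 7.44 on array 5 and at 9.33 and 9.64 on array 6, where both spots were marked non-uniform, so the arrays of that condition lay on either side of the unstimulated samples.

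P2rx5 encodes a P2X subunit present in many sensory neurons. Its 1 probe gave 10.06, 9.69, 9.18 and 9.62 in unstimulated neurons, and 10.80, 10.25, 10.67 and 10.32 in 18/1 5 hr. All 18/1 5 hr samples lay above all unstimulated samples. The level was 0.87 higher in 18/1 5 hr (SE 0.32, limma adjusted p = 0.0317). The 90/5 5 hr samples, at 10.27, 10.13, 10.67 and 10.11, also lay above the unstimulated ones without overlap, with a difference of 0.66 (95% interval −0.01 to 1.32) that did not pass the threshold. The 18/1 2 hr samples were at 10.25, 9.82, 9.60 and 9.85 and the 90/5 2 hr samples at 10.43, 9.52, 10.79 and 10.20, and both overlapped with unstimulated neurons. Within each of the 4 pairs of equal replicate number, P2rx5 and the brighter P2rx4 probe were higher in 18/1 2 hr than in unstimulated neurons. The other P2rx4 probe and the P2rx3 probes A_51_P116326 and A_55_P2050069 were lower. How many of all probes keep a single direction over these pairs was not counted, so this is a description only. Of all genes 0.0193% were called in this comparison. With the replicate number as a block, neither P2rx5 nor P2rx4 passed the threshold. From 2 hr to 5 hr of 18/1 P2rx5 differed by 0.63 (adjusted p = 0.116), which was called with the GC trend removed (0.90, adjusted p = 0.0309), with no array block (adjusted p = 0.0196) and by the test of the methods on p and fold. Between the patterns at 5 hr P2rx5 differed by −0.21 (95% interval −0.88 to 0.45, adjusted p = 0.61). In the order of the means, 18/1 5 hr came first, followed by 90/5 5 hr, 90/5 2 hr, 18/1 2 hr and unstimulated, and neighbours in this order overlapped. When arrays were only centred on their medians, the median of all genes tested moved to −0.81 in 18/1 5 hr from −0.23, and P2rx5 was at 0.07 (adjusted p = 0.881), which is 0.87 above that median as against 1.10 above it in the normalization used here. The call was also lost, at adjusted p of 0.0562 to 0.216, without unstimulated replicate 3 (0.65), the Cy3 sample of array 5 (0.81), 90/5 5 hr replicate 4 (0.87), array 1 (1.11), array 2 (0.63), array 3 (0.87), array 5 (0.86) or array 10 (0.87), as it was with only the 2 conditions in the fit (0.87, adjusted p = 0.0653), with the filter met within 1 condition (adjusted p = 0.0647) and with no filter (adjusted p = 0.136).

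P2ry2 encodes a receptor for ATP and UTP that couples to phospholipase C. Its 1 probe gave 11.50, 11.51, 11.23 and 11.11 in unstimulated neurons. The 18/1 2 hr samples were at 11.01, 11.42, 11.30 and 10.95, and the 18/1 5 hr samples at 11.92, 12.04, 11.87 and 11.90. The 18/1 5 hr samples lay close together and above every unstimulated and every 18/1 2 hr sample. P2ry2 was 0.76 higher after 5 hr than after 2 hr of 18/1 (SE 0.27, limma adjusted p = 0.0242), and 0.59 higher than in unstimulated neurons (adjusted p = 0.0731), which did not pass the threshold. The latter difference was called with no array block (adjusted p = 0.0161) and by the test of the methods (0.58, Benjamini-Hochberg adjusted p = 0.00948). Under 90/5 the samples were at 11.39, 11.77, 12.03 and 12.004 after 2 hr and at 10.97, 10.96, 11.78 and 11.51 after 5 hr. Here the 2 hr samples were on average higher than the 5 hr samples, the second array of 5 hr overlapped with the first of 2 hr, and the difference of −0.49 from 2 hr to 5 hr did not pass the threshold (adjusted p = 0.274). The change over time differed between the patterns, with an interaction of −1.25 (SE 0.37, 95% interval −2.03 to −0.48, adjusted p = 0.0096). Taken at each time, 90/5 minus 18/1 was 0.63 at 2 hr (adjusted p = 0.182) and −0.63 at 5 hr (adjusted p = 0.0584), the latter without overlap between the groups. The interaction rests on conditions from all 3 slides, and it was −0.92 without array 9 (adjusted p = 0.0853), −0.57 with centring on medians alone (adjusted p = 0.301), which moved the median gene to 0.93 from 0.30 and left P2ry2 at −1.49 relative to it as against −1.55, and −0.93 with each sample's trend on probe GC content removed (adjusted p = 0.0655). The difference between 5 hr and 2 hr of 18/1 was lost without 18/1 2 hr replicate 1 (0.67), 18/1 2 hr replicate 4 (0.67), 90/5 5 hr replicate 4 (0.76), array 3 (0.81), array 4 (0.72) or array 5 (0.72), at adjusted p of 0.0537 to 0.135, and was 0.09 with centring on medians alone (adjusted p = 0.817, 0.90 above the median gene as against 0.99), 0.63 with the GC trend removed (adjusted p = 0.0744), and 0.76 with no filter (adjusted p = 0.0692) or with the mean of an array as 1 replicate (adjusted p = 0.0560).

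**Figure D3:**
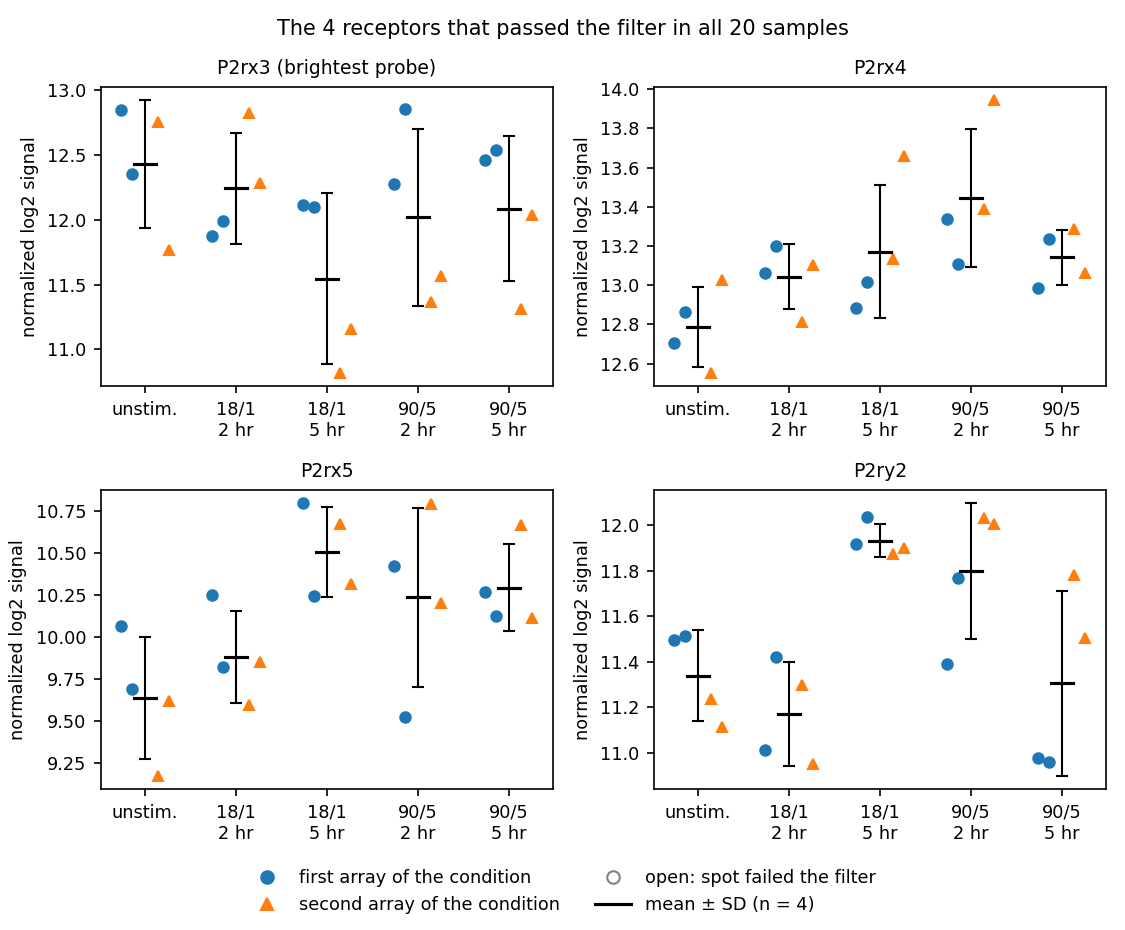
Normalized log2 signal of the brightest probe of P2rx3, P2rx4, P2rx5 and P2ry2 (panels) in the 5 conditions, with circles for the first and triangles for the second array of a condition and bars for the mean ± SD of 4 samples. P2ry2 in 18/1 5 hr lies between 11.87 and 12.04, above all unstimulated samples, and P2rx5 in 18/1 5 hr lies between 10.25 and 10.80.

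**Figure D4:**
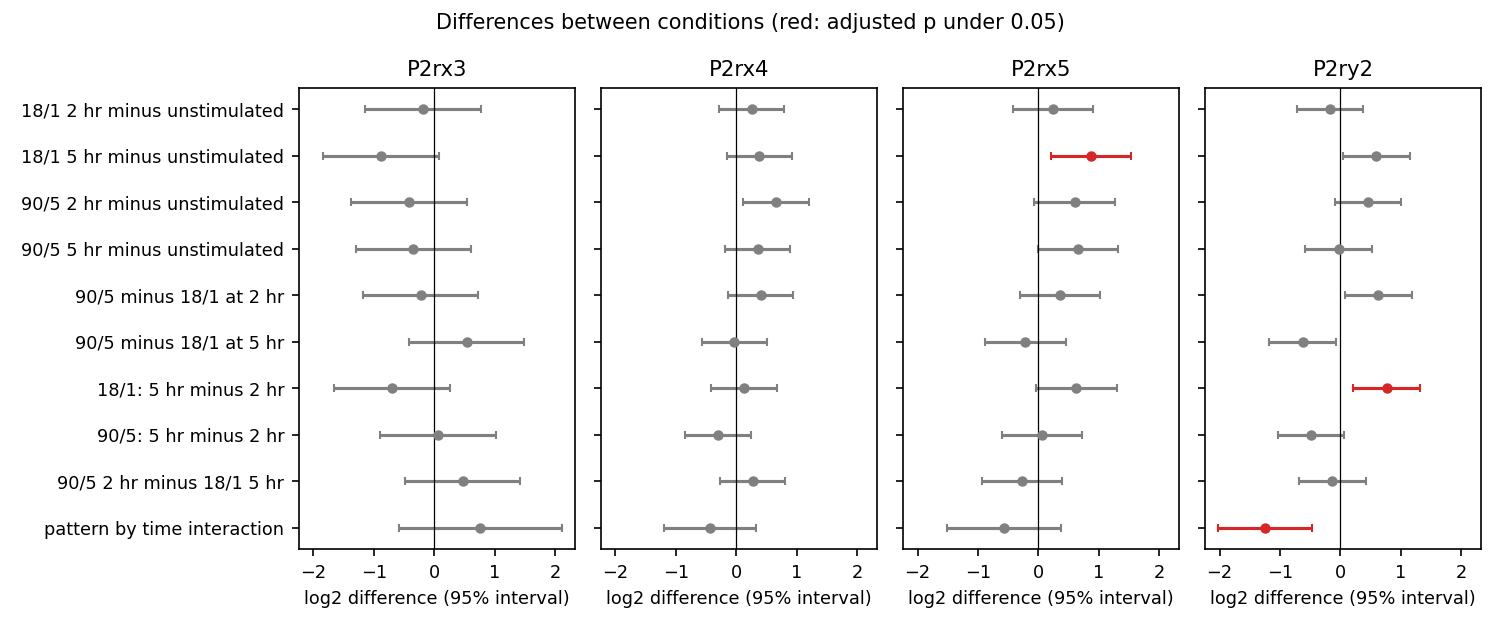
Log2 differences with 95% intervals from the limma fit (horizontal axis) for each comparison (rows) of P2rx3, P2rx4, P2rx5 and P2ry2 (panels). Red marks an adjusted p under 0.05, which holds for P2rx5 in 18/1 5 hr minus unstimulated (0.87) and for P2ry2 in 18/1 5 hr minus 2 hr (0.76) and the interaction (−1.25).

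P2rx6 encodes a subunit that forms channels mainly together with other subunits. Its 1 probe passed in 16 of 20 samples, at 8.00, 7.99, 7.67 and 7.96 in unstimulated neurons. In 18/1 5 hr it was at 11.99 and 12.31 on array 5 and at 8.26 and 8.57 on array 6, and the spot was marked non-uniform in all 4 of these samples. Array 5 stood 3.74 above array 6, and array 6 lay next to the 16 other samples, which ranged from 7.22 to 8.35. In the fit to 18744 genes that passed in all samples of at least 1 condition, 18/1 5 hr was 2.38 above unstimulated neurons (SE 0.68, limma adjusted p = 0.0110, 36.8% of genes called). It was 2.40 above 18/1 2 hr (adjusted p = 0.0107, 36.3% of genes called), 90/5 5 hr minus 18/1 5 hr was −2.44 (adjusted p = 0.00903, 38.2% called), and 90/5 2 hr minus 18/1 5 hr was −2.70 (adjusted p = 0.0222, 8.88% called). Without array 5 these were 0.51 (adjusted p = 0.239), 0.53 (adjusted p = 0.227), −0.57 (adjusted p = 0.186) and −0.83 (adjusted p = 0.127). Without the pair of samples on array 5, P2rx6 passed the threshold in none of these 4 comparisons, as was also so with the mean of an array as 1 replicate (adjusted p of 0.0759 to 0.150). Leaving out an array of the condition compared with it, 1 or 2 for unstimulated, 3 or 4 for 18/1 2 hr, 10 for 90/5 5 hr and 7 or 8 for 90/5 2 hr, kept the direction, with differences from −3.05 to 2.47, but not the call (adjusted p of 0.0559 to 0.0841), and so did arrays 1 and 2 for 90/5 2 hr (adjusted p = 0.0506 and 0.0512).

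P2rx2 encodes the partner of P2rx3 in mixed channels. Its brighter probe, A_55_P2182975, passed in 11 of 20 samples, in none of the 4 unstimulated and none of the 4 18/1 2 hr samples, and in 3, 4 and 4 samples of 18/1 5 hr, 90/5 2 hr and 90/5 5 hr. The levels nevertheless lay close together, with 7.19, 7.28, 7.22 and 7.09 in unstimulated neurons and 7.27, 7.34, 7.42 and 7.43 in 90/5 5 hr. Each condition overlapped with the unstimulated samples except 90/5 2 hr, which lay between 6.99 and 7.07. By the scanner's own mark the 90/5 2 hr spots were not well above background, and unstimulated neurons were at least 1.03-fold higher, set against the dimmest signal still well above background on each array. None of the differences of P2rx2 passed the threshold in the fit to 18744 genes, and the difference between 18/1 5 hr and unstimulated neurons was −0.14 (95% interval −0.57 to 0.30). The other P2rx2 probe passed in 0 of 20 samples, between 6.11 and 6.68.

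P2rx7 encodes a channel that needs high ATP and is best known from macrophages and microglia. Its 3 probes passed in 0, 5 and 3 of 20 samples. The probe A_51_P506733, whose bases span 2886 positions of the genome in the annotation, lay between 5.99 and 6.57 in all samples and was never well above background. At A_55_P2183010 the unstimulated samples were at 6.49, 6.70, 6.69 and 6.82 and the 18/1 5 hr samples at 7.58, 8.03, 7.78 and 8.01. All 18/1 5 hr samples lay above all unstimulated ones, but 3 of the 4 spots were marked non-uniform, and no test was made since the probe passed in no condition throughout. Where a probe was not well above background in any sample of a condition, the fold was set as for P2rx2. Where the probe's own signal was higher than that level, its own signal was used. The latter held for unstimulated neurons and 18/1 2 hr, so 2.26-fold and 2.30-fold are the plain folds between the means. On the same slide, 18/1 5 hr was at least 1.59-fold higher than 90/5 2 hr. All 3 folds rest on 18/1 5 hr spots that were mostly marked non-uniform. At the third probe, A_52_P393314, 90/5 5 hr was at 6.63 and 6.62 on array 9 and at 9.33 and 9.22 on array 10, while 18/1 5 hr lay between 7.08 and 7.30 and unstimulated neurons between 6.82 and 6.85.

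P2ry1, a receptor for ADP, passed in 0 of 20 samples and lay between 6.16 and 6.97. Its 18/1 5 hr samples, between 6.16 and 6.43, were below the unstimulated samples, between 6.72 and 6.84, but the signal was not well above background in any sample of either condition, so no fold is given. P2ry12, an ADP receptor known from microglia and platelets, passed in 2 of 20 samples, and apart from 1 sample its values lay between 6.22 and 6.93. That sample was at 7.69 in the Cy5 sample of array 8 in 90/5 2 hr, where both spots of the array were marked non-uniform. No condition was clear of the unstimulated samples for P2ry12.

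**Figure D5:**
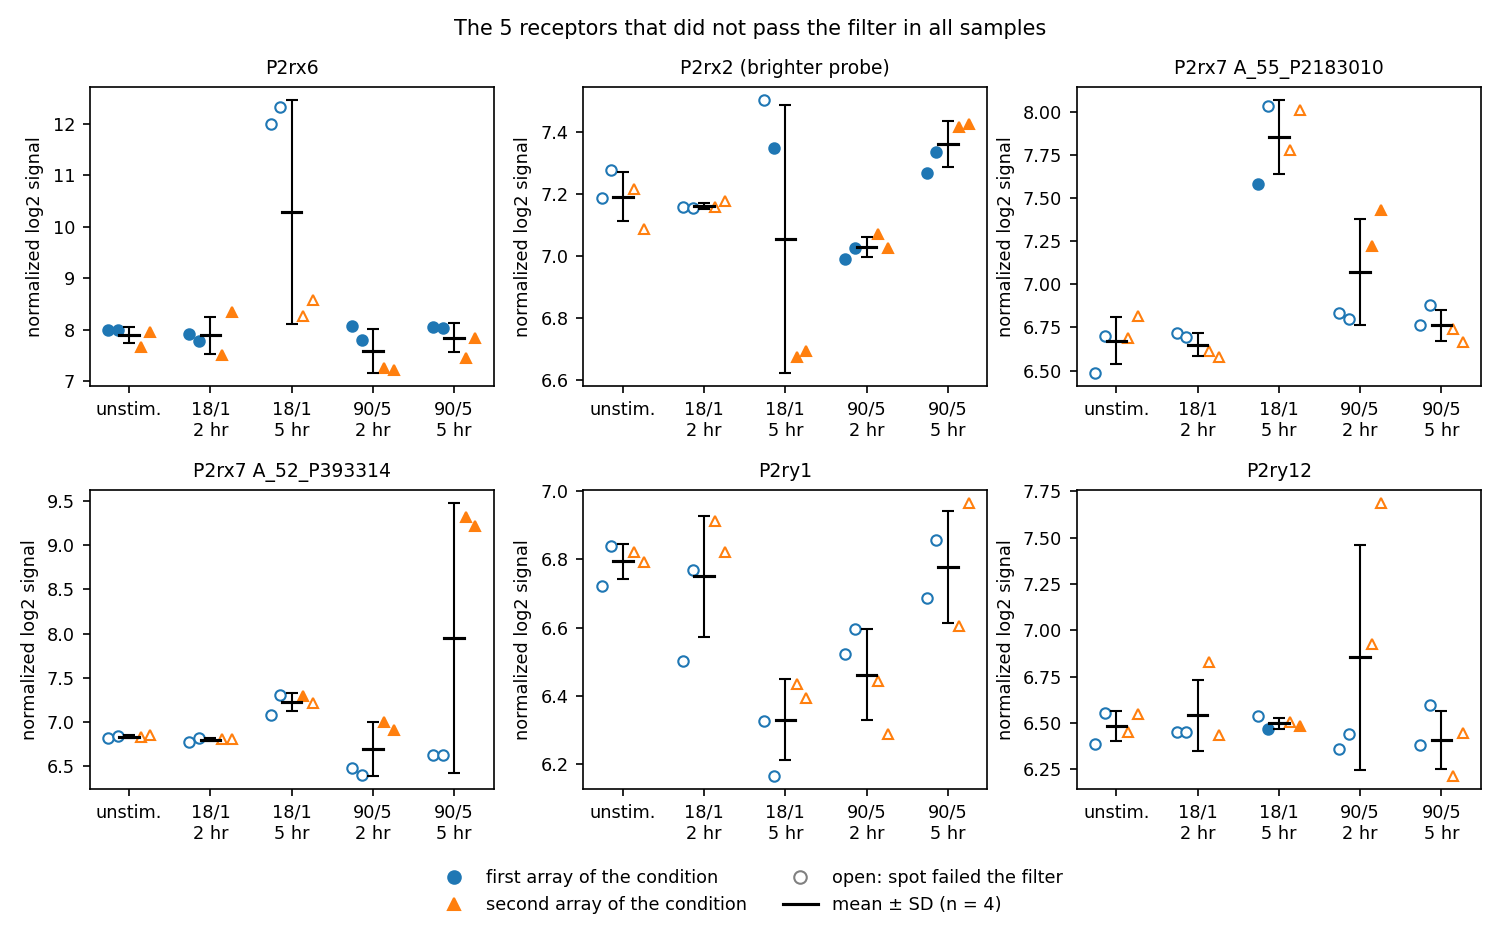
Normalized log2 signal of the probes of P2rx2, P2rx6, P2rx7, P2ry1 and P2ry12 (panels) in the 5 conditions, drawn as in the plots of the other receptors, with open symbols for samples that failed the filter. P2rx6 on array 5 (11.99 and 12.31) and P2rx7 on array 10 (9.33 and 9.22) stand apart from the other array of the same condition.

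Other cells of the culture can carry these receptors, and some of their markers were called in 18/1 5 hr, where 44.4% of all genes were called. The summed level of a list took the brightest probe of each of its genes on the array. No filter was applied to it, so it includes genes and spots that failed the filter. Of the 13 macrophage and microglia genes, 12 were on the array and 4 were tested. C1qb (−1.47) and Tmem119 (−1.13) were lower in 18/1 5 hr than in unstimulated neurons, and the summed level of the list was 13.5 to 14.9 in 18/1 5 hr and 14.5 to 15.0 in unstimulated samples. Of 6 fibroblast genes 4 were tested, and Col1a1 was 1.79 higher, with summed levels of 16.0 to 16.2 against 14.1 to 15.4. Of 4 endothelial genes 1 was tested, Pecam1, which fell by 1.35, with summed levels of 9.39 to 9.89 against 11.2 to 11.7. Of 9 genes of Schwann cells and satellite glia 2 were tested and 0 were called. Of the 13 tested sensory neuron genes 2 were called in 18/1 5 hr, 1 higher (Tac1, 1.07) and 1 lower, with a summed level of the list of 18.9 to 19.5 against 19.3 to 19.4. The summed level of the 5 spinal cord genes, none of which was tested, was 10.1 to 11.6 in 18/1 5 hr and 9.32 to 9.61 in unstimulated neurons. In the other conditions 0 genes of these lists were called against unstimulated neurons, while the endothelial sum was 10.01 to 10.98 in 90/5 2 hr and 11.9 to 12.6 in 90/5 5 hr, both without overlap with unstimulated neurons. Whether the cells behind these markers have a part in the receptor values was not tested.

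The rest of the nucleotide signalling machinery was read from 45 further genes, of which 20 passed the filter. Against unstimulated neurons 0 were called in 18/1 2 hr, 90/5 2 hr and 90/5 5 hr. In 18/1 5 hr 1 of the 20 was higher and 5 were lower, where 15.0% of all genes were called higher and 29.5% lower. Of all calls in that comparison 33.7% were higher, against 8.73% with centring on medians alone. Among genes that handle adenosine, the inhibitory adenosine receptor Adora1 (−0.74, adjusted p = 0.0453) and the nucleoside transporter Slc29a2 (−1.27, adjusted p = 0.00247) were lower, 2 of 5 tested. Among enzymes that break down nucleotides, Entpd2, which cleaves ATP outside the cell, was lower (−0.66, adjusted p = 0.0425) and Entpd5, which acts on nucleoside diphosphates in the secretory pathway, was higher (0.69, adjusted p = 0.0207), which were both of those tested. Among channels for ATP release Panx2 was lower (−1.49, adjusted p = 0.000783), 1 of 3 tested. Among the G proteins and effectors that P2Y receptors use, Gnai3 was lower (−1.09, adjusted p = 0.0219), 1 of 9 tested. Of 7 other nucleotide receptors only P2ry6 was tested, and it differed by 0.08. The median difference of these lists in 18/1 5 hr was −0.74 for adenosine, 0.02 for the enzymes, −0.54 for ATP release and −0.19 for P2Y coupling, beside −0.23 over all genes tested.

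Genes whose signal ran most like that of a measured receptor over the 20 samples are given by their Pearson correlation, as a description in which the samples of an array and of a condition are not independent. For P2rx3 (A_55_P1992430) these were Dhcr7 (0.88), Prrg3 (0.86) and Actl6b (0.85). For P2rx4 they were Abtb1 (0.89), Ahnak (0.84) and Nr1h3 (0.82), and for P2rx5 Gm13889 (0.86), Lsg1 (0.85) and Trit1 (0.85). For P2ry2 they were Sec16a (0.92), Camk4 (0.91) and Gtf3c5 (0.91). Correlations over 0.8 were reached by 0.116% of genes for P2rx3 and for P2rx5, by 0.0773% for P2rx4 and by 2.97% for P2ry2, so P2ry2 shared its pattern with more of the genes tested than the channels did.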

How the data were processed

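Single-colour signals of 20 samples on 10 2-colour Agilent whole mouse genome arrays were used, with conditions taken from the labels. The authors deposited scanner output, from which the mean spot intensity and the median intensity of the local background of each colour were read, on a linear scale and not normalized. Per the file headers, slide 1 was read with Agilent Feature Extraction 10.7.1.1 and slides 2 and 3 with 10.7.3.1. A further 72 columns of each array, among them log ratios of the 2 colours, were not used.

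Background was corrected with normexp (offset 50), followed by loess within arrays and quantile scaling of average signals between arrays (Aquantile). Spots of a probe were averaged. Probes entered the fit when their brightness reached 2 times that of the background and they were free of the non-uniform mark in all 20 samples, and each gene name was read from its brightest probe. limma was fitted to all 20 samples with 1 mean per condition, colour as a covariate and a random effect of the array (consensus correlation 0.529), and p-values were adjusted by Benjamini-Hochberg over all genes at a threshold of 0.05. For members outside the filter, the fit was repeated with the filter met in all samples of at least 1 condition, and for single probes over every probe. Software was R 4.3.3, limma 3.58.1, the package data.table in its version 1.17.8, Python 3.11.15, numpy 2.4.6 and matplotlib 3.10.9, and the code was tested on simulated data.

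The text names all 9 members by every probe, the 3 nearest genes of each member that passed in all samples, and at most 3 genes called per list. The members and lists were chosen with earlier results of these data known. Alternatives covered background, scaling, filters, probes, blocks, tests and leaving out samples and arrays. The colour of the replicates of 18/1 5 hr and 90/5 2 hr was not settled by the labels, so these samples are named by array and colour. In the other 3 conditions a number stands for the same colour and array order. Deviations of same-numbered samples correlated at −0.05 to 0.72 over 12 pairs, of which 9 were over 0.1, and at 0.41 to 0.72 over the 4 pairs of unstimulated and 18/1 2 hr, for which the fit with the replicate number as a block is given beside the one without it. Having 2 arrays per condition limits the precision. The sequence of 1 probe and the values of 1 marker gene are not reported here.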

Additional observations from a re-analysis of the deposited data

Results flagged for a closer look

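The change from 2 hr to 5 hr differed between the firing patterns for P2ry2 (interaction of −1.25 on the log2 scale, 90/5 minus 18/1) and for 3 probes of P2rx3 in the fit to every probe, A_51_P116326 (0.89), A_55_P2050069 (1.16) and A_55_P2375194 (−1.81), where 45.0% of all probes and 44.8% of all genes were called. The probes of P2rx3 thus differed in the direction of this interaction.

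In each group of 4 samples of a member probe, the gap between an extreme sample and its nearest neighbour was divided by the range of the group. This share exceeded the 95% critical value of Dixon's test in 3 of 80 groups, where chance gives about 1 in 20. The groups were P2rx2 (A_55_P2182975) in 18/1 2 hr with a high sample (0.853), P2rx6 in unstimulated neurons with a low sample (0.884) and P2ry12 in 18/1 2 hr with a high sample (0.957). P2rx2 and P2ry12 failed the filter in all samples of those groups.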

How the results depend on the processing

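Of 1802 recomputed values of the 4 tested members, 1678 kept their direction and their side of the threshold and 59 changed direction. For the members outside the filter these were 687 and 20 of 730, and for the called P2rx3 probes 369 and 0 of 408. The alternatives on the P2rx3 probes, on members outside the filter, the background rule alone and the singling out of array 5 were chosen after seeing the data. The number of called members in 18/1 5 hr against unstimulated, 1 as reported, was 2 with the background rule alone, with every probe and with the methods' test before or after adjustment. It was 3 with no array block and 0 with only the 2 conditions fitted. With centring it stayed 1, but P2rx5 was exchanged for P2rx3 (−1.50). With the filter met within 1 condition or with no filter it also stayed 1, and P2rx5 was exchanged for P2rx6 (2.38). With no array block 1 member was called in 90/5 2 hr against unstimulated and 1 between patterns at 2 hr, against 0, and the methods' test gave 1 for the latter and for 90/5 5 hr against unstimulated. Between patterns at 5 hr 1 member was called, against 0, with centring on medians, either looser filter, no filter, every probe, no array block and the methods' test. Between 5 hr and 2 hr of 18/1 the count of 1 became 2 with the looser filters, every probe, no array block and the methods' test, and 0 with array means, while P2ry2 was exchanged for P2rx5 (0.90) with the GC trend removed and for P2rx3 (−1.32) with centring. For 90/5 2 hr against 18/1 5 hr the count of 0 became 1 with centring, the looser filters, no filter and every probe. Members with an interaction, 1 as reported, were 0 with centring or with the GC trend removed and 2 with every probe, and the 4 calls outside the filter were 0 with array means. Leaving out single samples or arrays gave 0 to 2 members in 18/1 5 hr against unstimulated, 2 to 5 calls outside the filter, and 0 to 1 in each other count that changed. In settings other than leaving out samples or arrays that moved the share of all genes called by over 1.5 times, it was 0% to 2.09% in 18/1 2 hr, 25.7% in 18/1 5 hr, 0.657% to 22.2% in 90/5 2 hr and 0.0193% to 5.52% in 90/5 5 hr against unstimulated, 0% to 17.6% between patterns at 2 hr and 27.2% to 29.1% at 5 hr, 25.4% over time in 18/1, 0.27% to 22.7% in 90/5, 0% to 46.9% on slide 2, and 26.8% for the interaction. Leaving out single samples or arrays gave 24.8% to 54.7% in 18/1 5 hr, 0.840% to 27.0% in 90/5 2 hr, 0.0193% to 0.261% in 90/5 5 hr, 0.773% to 24.6% between patterns at 2 hr, 24.8% to 54.8% over time in 18/1, 2.49% to 27.4% in 90/5 and 0.550% to 34.4% on slide 2.

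Probe A_55_P2375194 turned the direction of P2rx3 in every comparison, at 0.24, 1.70, 0.95 and 0.61 against unstimulated (18/1 2 hr, 18/1 5 hr, 90/5 2 hr, 90/5 5 hr), 0.71 and −1.10 between patterns at 2 hr and 5 hr, 1.46 and −0.34 over time in 18/1 and 90/5, −0.75 for 90/5 2 hr against 18/1 5 hr and −1.81 for the interaction. In 90/5 5 hr A_51_P116326 gave 0.0083 and A_55_P2050069 0.13, and between patterns at 2 hr A_51_P116326 gave 0.0026. Centring on medians, under which the median gene moved to −0.81 from −0.23 in 18/1 5 hr, turned P2ry2 to −0.0793 in 18/1 5 hr, 0.13 in 90/5 5 hr, 0.21 between patterns at 5 hr and 0.68 for 90/5 2 hr against 18/1 5 hr. It turned P2rx5 to 0.73, −0.17, 0.51 and 0.39 (patterns at 5 hr, 18/1 over time, 90/5 2 hr against 18/1 5 hr, interaction), P2rx4 to 0.42 and −0.17 in the first pair of these, and P2rx2 to 0.0201 in 18/1 5 hr and 0.0498 over time in 18/1. In the 4 comparisons named for P2rx5 the median gene moved to 0.93, −0.80, 0.83 and 0.93, and relative to it P2rx5 was at −0.20, 0.64, −0.32 and −0.54. Relative to the median gene, none of these values of P2ry2, P2rx5 or P2rx4 changed direction. Removing the GC trend turned P2ry2 to 0.0377 in 90/5 5 hr, P2rx4 to 0.34, −0.16 and 0.14 (patterns at 5 hr, 18/1 over time, interaction) and P2rx3 to −0.0467 over time in 90/5. The methods' test turned P2ry2 to 0.00058 in 90/5 5 hr. The cause of these changes was not tested.

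Without single samples or arrays, values that crossed 0 ranged, for P2rx3, from −0.50 to 0.13 (18/1 2 hr), −0.96 to 0.14 (90/5 2 hr) and −0.76 to 0.07 (90/5 5 hr) against unstimulated, −0.77 to 0.32 and −0.0202 to 1.10 between patterns at 2 hr and 5 hr, −0.48 to 0.62 over time in 90/5 and −0.0880 to 1.03 for 90/5 2 hr against 18/1 5 hr. P2ry2 ranged from −0.37 to 0.31 in 90/5 5 hr and −0.35 to 0.0866 for 90/5 2 hr against 18/1 5 hr, P2rx4 from −0.25 to 0.19 between patterns at 5 hr and −0.10 to 0.35 over time in 18/1, and P2rx5 from −0.20 to 0.32 over time in 90/5. P2rx2 ranged from −0.0691 to 0.0112 (18/1 2 hr), −0.51 to 0.23 (18/1 5 hr), −0.0638 to 0.68 (patterns at 5 hr), −0.48 to 0.26 (18/1 over time) and −0.40 to 0.34 (90/5 2 hr against 18/1 5 hr). P2rx6 ranged from −0.19 to 0.15 (18/1 2 hr), −0.67 to 0.0327 (90/5 2 hr), −0.26 to 0.15 (90/5 5 hr), −0.65 to 0.0472 (patterns at 2 hr) and −0.0893 to 0.61 (90/5 over time).

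With the replicate number as a block, possible in 3 conditions, 0 members were called in 18/1 2 hr and 90/5 5 hr against unstimulated, and the share of all genes called was 0.0676% and 3.47%. It changed no other call of a member. Signal over background limits P2rx2, P2rx7, P2ry1 and P2ry12.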
